A study of Mus musculus with 15 samples.

Results

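Before a T cell divides it copies its genome, and this work describes the transcripts of 46 genes that carry out that copying, out of 17493 genes listed in the files. The genes were taken by symbol from a named list and sorted into 9 roles, from the licensing of replication origins to the supply of deoxynucleotides and the restoration of chromatin. All 46 were present, and all 46 passed the filter on low counts that left 10831 genes for testing. RNA was measured in 15 bulk libraries, in 5 groups of 3, of mouse CD8+ OT-I T lymphocytes from female mice of the strain C57BL/6-Tg(TcraTcrb)1100Mjb/Crl, whose transgenic receptor recognises an ovalbumin peptide on MHC class I. All cells came from spleen and lymph nodes, and every group carries that transgene; the labels give no age. The unstimulated group had no treatment and stands for 0 h. The immunofilament groups, called IF 8 h and IF 22 h, received 5 ng/ml of synthetic filaments bearing peptide-loaded MHC and IL-2, named IF-pMHC(SIIT)/IL-2. The dendritic cell groups, called DC 8 h and DC 22 h, had 20000 Flt-3Ligand dendritic cells with SIITFEKL peptide added to each well of 50000 T cells. No unstimulated library stands for 8 h or 22 h, so stimulus and time in culture cannot be told apart in a comparison with them. Cells were sorted as viable, CD8+ and CD103- before RNA extraction. The titles number the 3 libraries of every group with the tag Don and do not spell out what the tag stands for, or whether a number is the same source in each group. The p-values measure the spread between these libraries, which may be technical where they share an animal.

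Replication starts when the origin recognition complex, CDC6 and CDT1 load a ring of MCM2 to MCM7 onto DNA as an inactive helicase. CDC45 and the GINS complex then turn that ring into a working helicase at the start of S phase. Primase and polymerase alpha lay down primers, polymerases delta and epsilon extend them on the PCNA clamp, and FEN1 and LIG1 join the fragments of the lagging strand. Ribonucleotide reductase, thymidylate synthase and thymidine kinase supply deoxynucleotides, and CAF-1, UHRF1 and DNMT1 rebuild chromatin and copy DNA methylation. E2F transcription factors are known to drive many of these genes when a resting lymphocyte leaves quiescence, a step that naive CD8+ T cells take in the first day after antigen.

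Promoter windows of 3 members are shown for 3 arrangements of motifs known from cell cycle genes; most members lack the E2F-type words, and how the windows relate to the expression changes was not tested. Windows of 250 bases before the annotated RefSeq start were read on GRCm38.p6, a patch of the mm10 build, and 39 of the 46 members had one. Capitals mark exact matches, on either strand, to 4 E2F-type words of 8 bases (TTTGGCGC, TTTCCCGC, TTTCGCGC and TTTGCCGC) and to CCAAT, the word bound by NF-Y. The sequences below run 5′ to 3′ on the strand of the gene, and none holds an annotated exon.
Mcm6, chr1:128359706-128359955, minus strand: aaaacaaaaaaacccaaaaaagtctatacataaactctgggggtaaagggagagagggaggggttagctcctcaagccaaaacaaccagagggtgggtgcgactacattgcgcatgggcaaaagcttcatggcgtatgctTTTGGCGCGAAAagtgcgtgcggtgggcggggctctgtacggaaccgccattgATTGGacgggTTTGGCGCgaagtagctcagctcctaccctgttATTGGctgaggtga
Mcm5, chr8:75109259-75109508, plus strand: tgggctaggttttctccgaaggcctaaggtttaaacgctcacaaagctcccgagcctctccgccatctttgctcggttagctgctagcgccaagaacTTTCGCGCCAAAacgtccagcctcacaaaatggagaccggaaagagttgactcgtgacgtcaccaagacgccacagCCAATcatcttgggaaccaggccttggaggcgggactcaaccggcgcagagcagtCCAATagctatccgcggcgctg
Mcm3, chr1:20820313-20820562, minus strand: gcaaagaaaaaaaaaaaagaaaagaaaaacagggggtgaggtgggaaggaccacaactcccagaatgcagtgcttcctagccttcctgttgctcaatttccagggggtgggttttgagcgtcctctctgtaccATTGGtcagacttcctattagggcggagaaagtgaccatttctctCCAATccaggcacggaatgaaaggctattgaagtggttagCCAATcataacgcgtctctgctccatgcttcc
The Mcm6 window has E2F-type words whose first bases lie 110, 106 and 47 bases before the start, and the first pair overlaps on opposite strands. The Mcm5 window has an overlapping pair of the same kind, at 153 and 149 bases. The Mcm3 window has none of the 4 words and 3 CCAAT words. Over all windows, 8 of 39 members (20.5%) held at least 1 of the 4 E2F-type words, namely Orc1, Cdc6, Mcm5, Mcm6, Mcm7, Gins3, Rfc3 and Pola1, and TTTGCCGC was in 0 of 39. The same was true of 3.77% of 8165 tested genes and 1.92% of all 27025 genes with a window. CCAAT was present in 25 of 39 members (64.1%), 37.3% of the tested genes and 34.5% of all genes. Among the 8 members with an E2F-type word, the windows of Orc1, Cdc6, Mcm7, Gins3 and Rfc3 hold an annotated exon of the gene itself. Those windows thus lie at least partly within the annotated gene. When the first 50 transcribed bases were added to the window, 13 of 39 members (33.3%) held an E2F-type word, against 4.51% of tested genes; the members added were Mcm3, Cdt1, Pold1, Pold3 and Pole2, so the Mcm3 word reaches into those 50 bases. These are matches of letters and not measured binding.

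Library totals ran from 2892874 counts in IF 8 h replicate 2 to 19806730 in IF 22 h replicate 3. Levels are given as CPM, counts scaled to a common library size by the library total and its TMM factor, a composition correction that ran from 0.857 to 1.105. IF 22 h replicates 2 and 3 stood apart from the rest: mitochondrial ribosomal RNA made up 0.179% and 0.146% of their counts, against 1.82% to 4.49% elsewhere. In both, 127 genes lay more than 2-fold below every other library, and 0 of the 46 members were among these. The early activation genes Tnfrsf9 and Il2ra rose against unstimulated cells in all 4 stimulated groups, with log2 fold changes of 4.30 to 5.13 for Tnfrsf9 and 3.73 to 4.70 for Il2ra. The calls of Tnfrsf9 were kept whichever library was left out. For Il2ra that held at DC 8 h, while 15 such fits in edgeR lost its call in 1 case at IF 8 h (unstimulated replicate 2), 5 at IF 22 h and 2 at DC 22 h (unstimulated replicate 1 or 2), with an adjusted p of at most 0.126. At DC 22 h Il2ra measured 10.01, 65.97 and 3.93 CPM and Tnfrsf9 68.9, 190.4 and 32.3 CPM in replicates 1, 2 and 3. Without replicate 2 the log2 fold changes there were 2.50 for Il2ra and 3.37 for Tnfrsf9, and without replicate 2 of DC 8 h those at DC 8 h were 4.01 and 4.12. Replicate 2 was also the highest library of both DC groups for the activation genes Irf4 and Myc. Omitting unstimulated replicate 3 put Il2ra at 4.34 to 5.32 in the 4 groups. Of the 8 genes of that list, 3 rose and 0 fell with either stimulus at 8 h, against 3.04% (IF) and 2.75% (DC) of all genes higher. At 22 h 2 rose and 1 fell with either, against 2.63% and 3.41% of all genes higher and 3.43% and 4.35% lower. The gene that fell was Cd69, another early activation gene, at −1.96 (IF) and −1.64 (DC) on the log2 scale, after values of −0.83 and −0.21 at 8 h that did not pass. CD8 T cell markers, 7 of 8 of which were in the files, summed to 8508 to 9232 CPM in unstimulated cells and 3825 to 6149 CPM in the other groups. The 18 dendritic cell markers summed to 646.1 to 1535 CPM in unstimulated cells, 212.7 to 467.1 at IF 8 h, 853.7 to 1238 at DC 8 h, 373.3 to 629.1 at IF 22 h and 471.7 to 640.0 at DC 22 h. Of these markers 14 could be tested, and 2 rose and 4 fell at DC 22 h against unstimulated cells (3.41% of all genes higher and 4.35% lower). Their log2 fold changes ran from −6.79 for Xcr1 to 6.94 for Ccl22, and 0 passed from DC 8 h to DC 22 h. Of 7 CD8 T cell markers 5 fell there against unstimulated cells. Fscn1, an actin bundler of mature dendritic cells, measured at most 6.74 CPM in unstimulated cells, 125.5 to 168.1 at DC 8 h and 72.83 to 94.73 at DC 22 h. Where no dendritic cells were added, Fscn1 measured at most 0.663 CPM at IF 8 h and 5.83, 21.49 and 43.81 CPM at IF 22 h. Zbtb46 was at 0 in every unstimulated and IF 8 h library. It measured 0.3568, 0.1194 and 0.408 CPM at IF 22 h, where no dendritic cells were added. Other dendritic cell markers ran the other way. Itgax had group means of 14.48 CPM in unstimulated cells, 20.01 at IF 22 h and 3.944 at DC 22 h. H2-Ab1 and Cst3 had their highest group means in unstimulated cells, at 227.9 and 221.3 CPM. B cell markers summed to at most 41.8 CPM in any library. Between the stimuli at 22 h, 3 of 7 CD8 T cell markers were higher with immunofilaments, and 1 of 14 dendritic cell markers was higher and 1 lower, against 2.43% of all genes called. The part of other cells in the results was not tested.

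Summed over the 46 members, expression lay below or near the unstimulated level at 8 h and above it at 22 h. The sums were 1671, 1769 and 1854 CPM in unstimulated replicates 1, 2 and 3, an order kept in all value sentences here. They were 1377, 1410 and 1423 CPM at IF 8 h and 1400, 1748 and 1378 CPM at DC 8 h. At 22 h they reached 2281, 2754 and 3125 CPM with immunofilaments and 3243, 5668 and 1969 CPM with dendritic cells. Every 22 h library lay above every unstimulated library, and every IF 8 h library lay below them. Among DC 8 h libraries, replicate 2 lay within the unstimulated range. The separation at 8 h depends on the TMM factors, which were 0.857 to 0.872 in unstimulated libraries and 1.01 to 1.05 at 8 h. As a plain share of counts the members made up 0.143% to 0.161% in unstimulated cells, 0.139% to 0.147% at IF 8 h and 0.144% to 0.182% at DC 8 h, which overlap. At 22 h they made up 0.210% to 0.627%. Statements below on 8 h libraries lying below or above unstimulated ones, for a gene or a list, also use TMM-scaled CPM. Some of these separations are lost on plain counts. For Mcm7, 557 of 5572030 counts in IF 8 h replicate 1 is a larger share than 749 of 7958411 in unstimulated replicate 1. The DC 22 h libraries spread most: replicate 2 was highest and replicate 3 lowest of that group, and replicate 3 lay below all IF 22 h libraries. In bulk RNA, fewer cells of a type and less RNA per cell cannot be told apart, so a sum does not say how many cells were in S phase.

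**Figure D1:**
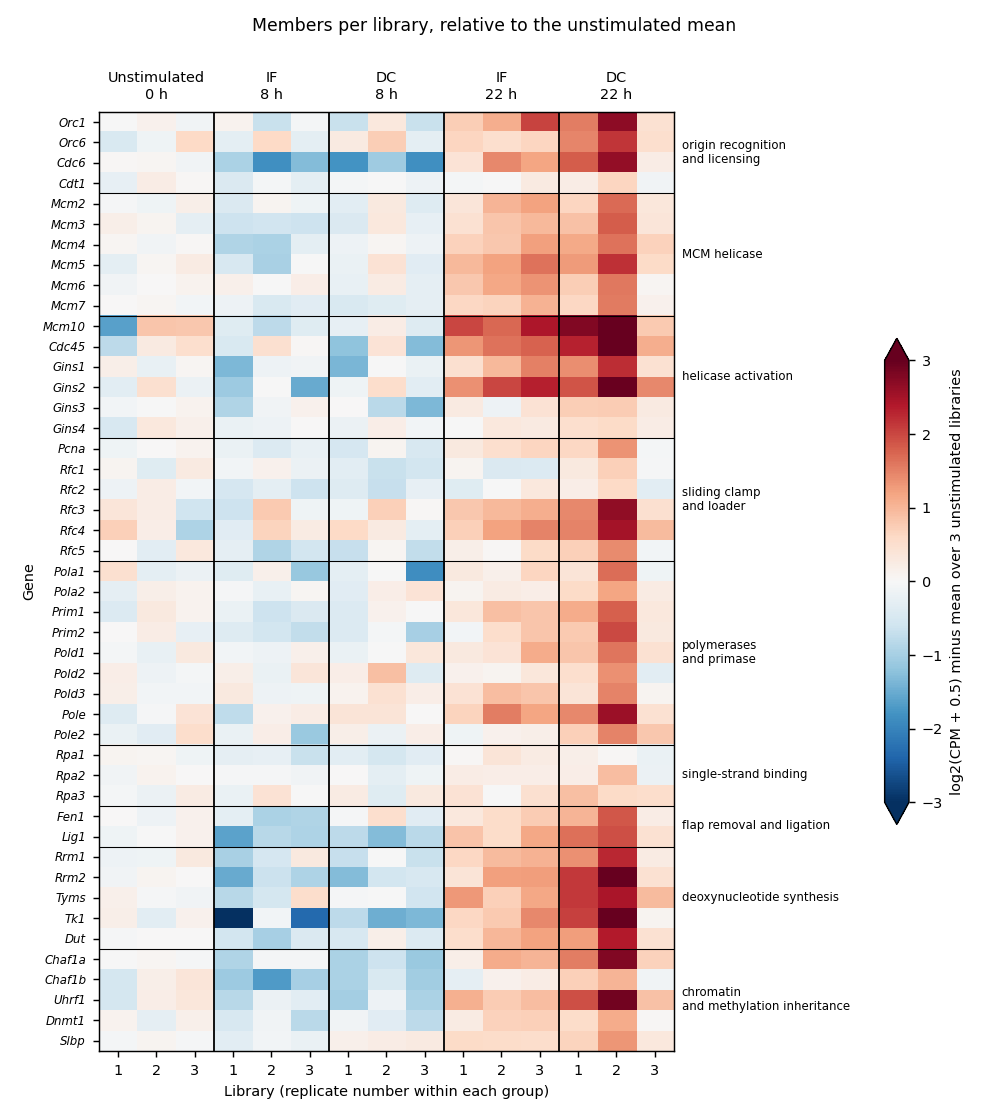
Log2(CPM + 0.5) of each of the 46 members in each of the 15 libraries, minus the mean of the 3 unstimulated libraries, with genes in rows by role and libraries in columns by group. Colour is mostly below 0 at 8 h and above 0 at 22 h, and DC 22 h replicate 2 is the highest library for 44 of 46 members.

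The spread among DC 22 h libraries ran through almost all members. Replicate 2 of that group was the highest of the 15 libraries for 44 of 46 members, against 14.1% of all genes. It lay above replicate 3 for all 46 members and above replicate 1 for 44, against 47.7% and 48.9% of all genes, and replicate 1 lay above replicate 3 for 45 (49% of all genes). At IF 22 h, replicate 3 lay above replicate 1 for 41 members and above replicate 2 for 36, against 53.5% and 49.5% of all genes, and replicate 2 lay above replicate 1 for 33 (52.8% of all genes). At DC 8 h replicate 2 lay above replicate 1 for 34 members (47.3% of all genes) and above replicate 3 for 33 (48%). Across stimuli at 22 h, DC replicate 2 lay above IF replicate 3 for 45 members (50.5% of all genes), and IF replicate 1 lay above DC replicate 3 for 32 (50.1%). By group means, DC 22 h was highest for 44 members (21.0% of all genes) and IF 22 h for the other 2 (17.9%). The lowest group mean was at IF 8 h for 26 members (20.3% of all genes), at DC 8 h for 15 (13.4%) and in unstimulated cells for 5 (28.4%).

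At 8 h the members gave almost no single-gene calls against unstimulated cells. With immunofilaments 0 members rose and 1 fell, Chaf1b, a subunit of the chromatin assembly factor CAF-1, while 7.76% of all genes tested changed, 3.04% higher and 4.72% lower. The median member log2 fold change was −0.34, with 40 of 46 values below 0, against a median of 0.02 over all genes. In 15 members the IF 8 h libraries lay entirely below the unstimulated ones, and in 0 entirely above; over all genes these shares were 16.4% and 14.2%. With dendritic cells 0 members passed, against 6.82% of all genes (2.75% higher and 4.07% lower); 5 members had an unadjusted p under 0.05 in edgeR, against 20.9% of all genes, while DESeq2 called 2 (10.9% of all genes) and edgeR with the library number as a block called 1 (6.59%). The median member log2 fold change at DC 8 h was −0.22, with 33 values below 0 and 13 above. Members lay entirely below the unstimulated libraries in 8 cases (15.3% of all genes) and above in 1 case, Slbp (12.8%). With total counts alone as the scale, the member median at DC 8 h came to 0.05 and that of all genes to 0.30; at IF 8 h they came to −0.11 and 0.26. The members' median thus lay below that of all genes on both scales, while its sign at DC 8 h differed. The count at IF 8 h was 0 on leaving out unstimulated replicate 2 or 3 or IF 8 h replicate 1, 2 on leaving out DC 8 h replicate 2, and 3 on leaving out replicate 2 or 3 of DC 22 h.

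At IF 22 h, 4 members rose and 0 fell against unstimulated cells: the helicase genes Mcm4, Mcm5 and Mcm6 and the helicase activator Gins2. Over all genes 6.07% changed, 2.63% higher and 3.43% lower, and the 4 members made up 1.4% of the 285 genes that rose. The median member log2 fold change was 0.75, against 0.01 over all genes, and 43 of 46 values were above 0. All 3 libraries lay above all unstimulated ones for 30 members, against 15.7% of all genes. Single libraries decide this count: it was 0 on leaving out unstimulated replicate 1 or 3 or replicate 2 or 3 of IF 22 h, and 1 on leaving out unstimulated replicate 2. It came to 11 on leaving out DC 22 h replicate 2 and to 7 on leaving out its replicate 3. Neither library is in the groups compared here. They enter through what the fit of all groups shares: the estimate of spread, the TMM scaling and the filter on low counts. With IF 22 h replicates 2 and 3, the libraries low in mitochondrial ribosomal RNA, both left out it was 0, against 0.833% of all genes. The member median then came to 0.43, against −0.01 over all genes. A fit of these 2 groups alone called 16 members and 9.93% of all genes.

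With dendritic cells at 22 h, 23 members rose and 0 fell against unstimulated cells, against 7.76% of all genes changed, 3.41% higher and 4.35% lower. They made up 6.23% of the 369 genes that rose. They were Orc6 and Cdc6 of origin licensing, Mcm3, Mcm4, Mcm5 and Mcm7 of the helicase, and Mcm10, Cdc45 and Gins2 of helicase activation. From the replication machinery came Rfc3, Rfc4, Prim1, Pold1, Pole, Fen1 and Lig1, from nucleotide supply Rrm1, Rrm2, Tyms and Dut, and from chromatin Chaf1a, Uhrf1 and Slbp. The median member log2 fold change was 1.15, against 0.04 over all genes, and all 46 values were above 0. Libraries lay entirely above the unstimulated ones for 28 members, against 12.8% of all genes. Leaving out DC 22 h replicate 2 lowered the count to 7 and leaving out its replicate 1 to 15; for the unstimulated group it was 8 on leaving out replicate 1 or 2 and 12 on leaving out replicate 3. It was 9 without replicate 2 of both DC groups (6.29% of all genes) and 8 in a fit of these 2 groups alone (5.13%). Both 22 h comparisons use the same unstimulated libraries, so they are not independent of each other.

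**Figure D2:**
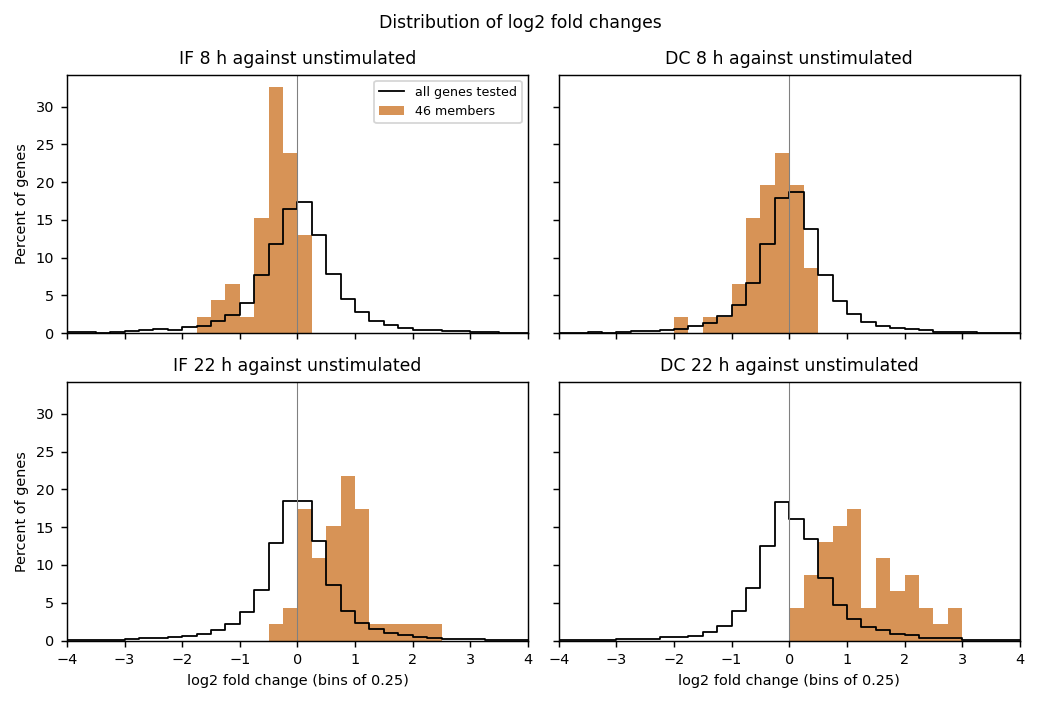
Distribution of log2 fold changes against unstimulated cells, in bins of 0.25, for the 46 members and for all 10831 genes tested, in the 4 stimulated groups. All genes centre near 0 in every panel, while members centre at −0.34 and −0.22 at 8 h and at 0.75 and 1.15 at 22 h.

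Between 8 h and 22 h of the same stimulus, where no unstimulated library enters the difference, nearly all members lay higher at 22 h. With immunofilaments 8 members rose and 0 fell, against 1.12% of all genes changed, 0.637% higher and 0.48% lower: Cdc6, Mcm3, Mcm4, Mcm5, Gins2, Lig1, Rrm2 and Dut. These are 11.6% of the 69 genes that rose. The median member log2 fold change was 1.06, with 45 of 46 values above 0, the exception being Rfc1. With dendritic cells 14 members rose and 0 fell, against 0.48% of all genes changed, 0.379% higher and 0.102% lower: Cdc6, Mcm4, Mcm7, Cdc45, Gins2, Lig1, Rrm1, Rrm2, Tyms, Tk1, Dut, Chaf1a, Chaf1b and Uhrf1. These are 34.1% of the 41 genes that rose, and the median member log2 fold change was 1.28 with all 46 values above 0. The 2 differences share no library, and 6 members rose in both (0.148% of all genes), Cdc6, Mcm4, Gins2, Lig1, Rrm2 and Dut, which is 75% of the first list and 42.9% of the second. In 28 members both 22 h groups lay entirely above their own 8 h libraries, against 1.76% of all genes. The 22 h libraries lay above the 8 h ones for 37 members with immunofilaments (12.1% of all genes) and for 33 with dendritic cells (6.88%).

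Both counts over time moved with single libraries. Leaving out IF 8 h replicate 1 gave the lowest immunofilament count, 1, and leaving out DC 22 h replicate 2 the highest, 18. Among the libraries of the comparison itself, the count fell to 2 on leaving out replicate 3 of either IF group, to 3 for IF 22 h replicate 2 and to 4 for IF 8 h replicate 2, while leaving out IF 22 h replicate 1 gave 16. Libraries of the other groups enter the immunofilament count through the shared spread, scaling and filter alone. Among these, omitting DC 22 h replicate 3 gave 16, and omitting DC 22 h replicate 1 or unstimulated replicate 1 or 2 gave 4. Omitting unstimulated replicate 3 or DC 8 h replicate 1 or 3 gave 5. For dendritic cells, leaving out DC 8 h replicate 1 gave the lowest count, 0, and leaving out DC 22 h replicate 3 the highest, 32. Leaving out DC 8 h replicate 3 or DC 22 h replicate 2 gave 4, and leaving out DC 8 h replicate 2 or DC 22 h replicate 1 gave 5. Omitting unstimulated replicate 3 gave 8 and omitting IF 22 h replicate 2 gave 9. The main fit did not use the library number as a block. Libraries of the same number deviated together in the DC 8 h and DC 22 h groups. A fit of those 6 libraries called 0 members without the number as a block (0% of all genes) and 24 with it (1.63% of all genes).

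**Figure D3:**
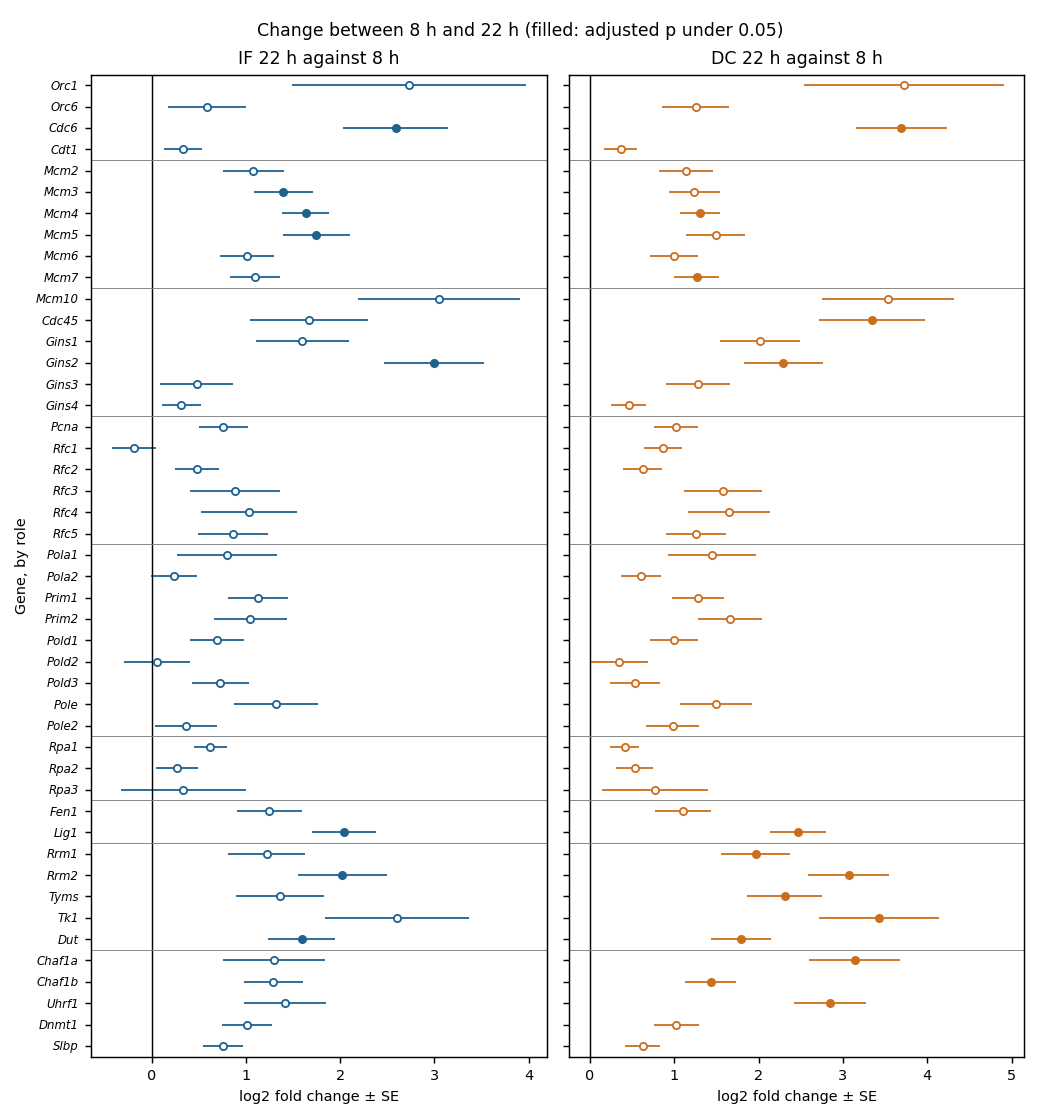
Log2 fold change ± SE between 22 h and 8 h for each of the 46 members, with immunofilaments and with dendritic cells; filled symbols passed an adjusted p of 0.05. Values lie above 0 for 45 members with immunofilaments and 46 with dendritic cells, and 8 and 14 symbols are filled.

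Between the 2 stimuli no member passed at either time. At 8 h 0 of 46 passed in edgeR, against 0.665% of all genes; 2 had an unadjusted p under 0.05 (8.27% of all genes), Mcm4 and Fen1, and DESeq2 called 0. At 22 h 0 of 46 passed, against 2.43% of all genes; 8 had an unadjusted p under 0.05 (15.3% of all genes), and DESeq2 called 1 (5.2%). Immunofilament values lay below dendritic cell values for 44 of 46 members at 22 h, with a median log2 difference of −0.51 against −0.02 over all genes. The lowest adjusted p was 0.116 in edgeR, for Pole2, a subunit of polymerase epsilon. Pole2 measured 15.3, 13.7 and 25.6 CPM in unstimulated cells, 15.2, 20.2 and 7.76 at IF 8 h, 19.99, 15.5 and 20.2 at DC 8 h, 15.9, 19.4 and 19.99 at IF 22 h, and 28.9, 50.1 and 31 at DC 22 h. The DC 22 h libraries of Pole2 lay above all the others, and its log2 difference between IF and DC at 22 h was −0.99 ± 0.31 (SE, adjusted p 0.116). Without replicate 2 of both DC groups the median difference over the members was −0.03. The difference between the stimuli in the change from 8 h to 22 h was tested as an interaction, and 0 of 46 members passed in edgeR, against 0% of all genes; 3 had an unadjusted p under 0.05 (7.92% of all genes), Rfc1, Chaf1a and Uhrf1, and DESeq2 called 0.

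**Figure D4:**
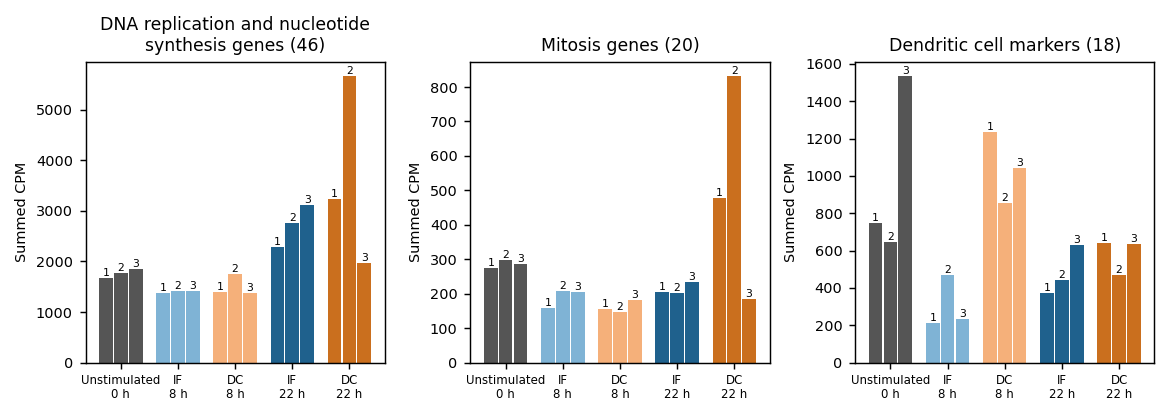
Summed CPM in each library of the 46 members, 20 mitosis genes and 18 dendritic cell markers, as bars from 0 with 1 bar per library. The member sum is highest in DC 22 h replicate 2, where mitosis genes also peak at 831.7 CPM, while dendritic cell markers reach 471.7 CPM there, the lowest of their group.

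Among the 4 origin licensing genes, 2 rose at DC 22 h (3.41% of all genes higher) and 1, Cdc6, rose over time with either stimulus (0.637% of all genes higher with immunofilaments and 0.379% with dendritic cells). Cdc6 measured 6.16, 6.32 and 5.58 CPM in unstimulated cells, 2.85, 1.33 and 2.14 at IF 8 h, 1.39, 2.61 and 1.32 at DC 8 h, 8.09, 17.2 and 14.3 at IF 22 h, and 22.3, 39.9 and 7.09 at DC 22 h. All 8 h libraries of Cdc6 lay below all unstimulated ones, and all 22 h libraries lay above them. Its log2 fold change from 8 h to 22 h was 3.69 ± 0.54 (SE, adjusted p 0.00907) with dendritic cells and 2.59 ± 0.55 (SE, adjusted p 0.0351) with immunofilaments, both from edgeR as are all adjusted p-values here. Where a call was lost when 1 library was left out, the adjusted p of those fits is given with the libraries or, for more than 5, their number. The adjusted p of the first became 0.0525 when DC 8 h replicate 1 was left out, and that of the second 0.0504 to 0.142 in 8 of 15 fits that left 1 library out. Against unstimulated cells Cdc6 rose at DC 22 h by 1.93 ± 0.49 (SE, adjusted p 0.0236) on the log2 scale; the adjusted p became 0.0524 to 0.144 when unstimulated replicate 1, 2 or 3 or DC 22 h replicate 1 or 2 was left out. Omitting DC 22 h replicate 2 lowered the log2 fold change of Cdc6 to 1.30 at DC 22 h and to 3.06 from DC 8 h, and omitting IF 22 h replicates 2 and 3 lowered its immunofilament change over time to 1.89. Orc6, a subunit of the origin recognition complex, measured 6.89, 8.85 and 14.9 CPM in unstimulated cells, 7.84, 14.9 and 7.76 at IF 8 h, 11.8, 16.5 and 7.77 at DC 8 h, 15.5, 14.1 and 15.6 at IF 22 h, and 27.8, 44.5 and 14 at DC 22 h. Replicates 1 and 2 of DC 22 h stood above all other Orc6 libraries, and replicate 3 lay within the unstimulated range. Orc6 rose at DC 22 h by 1.51 ± 0.41 (SE, adjusted p 0.0320) on the log2 scale; the adjusted p became 0.0680 to 0.160 when unstimulated replicate 1 or 2 or DC 22 h replicate 1 or 2 was left out. Cdt1, which loads the MCM ring with CDC6, measured 52.1, 72.4 and 64.2 CPM in unstimulated cells, 45.99, 59.6 and 50.6 at IF 8 h, 59.8, 61.7 and 56.5 at DC 8 h, 60.1, 61.4 and 74.7 at IF 22 h, and 73.1, 97.8 and 58.2 at DC 22 h. Each stimulated group of Cdt1 overlapped the unstimulated one, the IF 22 h libraries lay above the IF 8 h ones, and no comparison passed. Orc1, the largest subunit of the complex, had 148 counts in all libraries together, with 0 counts in IF 8 h replicate 2 and DC 8 h replicates 1 and 3, and no comparison passed. Exons of Orc6 overlap those of Vps35 and exons of Orc1 those of Gm12743, and strand use in the counting was not given in the sources used here.

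All 6 MCM helicase genes had IF 22 h libraries entirely above the unstimulated ones, as had 15.7% of all genes. At IF 22 h 3 rose (2.63% of all genes higher), at DC 22 h 4 rose (3.41%), and over time 3 rose with immunofilaments (0.637%) and 2 with dendritic cells (0.379%). Mcm4 (chr16:15623897-15637400, minus strand) rose in all 4 of these comparisons. It measured 43.3, 38.3 and 42.3 CPM in unstimulated cells, 21.8, 21.2 and 33.5 at IF 8 h, 37.2, 42.8 and 36.8 at DC 8 h, 66.96, 72.1 and 97.9 at IF 22 h, and 92, 129 and 67.03 at DC 22 h. All IF 8 h libraries of Mcm4 lay below the unstimulated ones and all 22 h libraries above them. For Mcm4 the log2 fold change was 0.94 ± 0.24 (SE, adjusted p 0.0281) at IF 22 h and 1.22 ± 0.24 (SE, adjusted p 0.00482) at DC 22 h. From 8 h to 22 h it was 1.64 ± 0.25 (SE, adjusted p 0.00735) with immunofilaments and 1.30 ± 0.24 (SE, adjusted p 0.0231) with dendritic cells. For Mcm4 the adjusted p at IF 22 h became 0.0589 to 0.149 when unstimulated replicate 1, 2 or 3 or IF 22 h replicate 2 or 3 was left out, and that from 8 h to 22 h with dendritic cells 0.0592 to 0.130 when DC 8 h replicate 1, 2 or 3 or DC 22 h replicate 1 or 2 was left out; the other 2 calls were kept whichever library was left out. Mcm5 (chr8:75109569-75128439, plus strand) measured 37.1, 47.1 and 53.95 CPM in unstimulated cells, 32.6, 22.9 and 44.97 at IF 8 h, 39.8, 61.9 and 35.6 at DC 8 h, 90.4, 106 and 142 at IF 22 h, and 111, 208 and 67.8 at DC 22 h. Every 22 h library of Mcm5 lay above every unstimulated and 8 h library, and DC 22 h replicate 3 was the lowest of them. For Mcm5 the log2 fold change was 1.30 ± 0.35 (SE, adjusted p 0.0361) at IF 22 h, 1.49 ± 0.35 (SE, adjusted p 0.0150) at DC 22 h and 1.75 ± 0.36 (SE, adjusted p 0.0267) from IF 8 h to IF 22 h. For the first call of Mcm5 the adjusted p became 0.0514 to 0.155 in 6 of 15 fits that left 1 library out. For the second it became 0.0552 to 0.0743 when unstimulated replicate 1 or 2 or DC 22 h replicate 2 was left out, and for the third 0.0561 to 0.128 when IF 8 h replicate 1, 2 or 3 or IF 22 h replicate 2 or 3 was left out.

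Mcm6 (chr1:128331590-128359664, minus strand) passed against unstimulated cells at IF 22 h and not at DC 22 h; the log2 difference between the stimuli was 0.20 ± 0.28 (SE, adjusted p 0.806), and it did not pass. It measured 84.8, 91.6 and 98.6 CPM in unstimulated cells, 101, 91.4 and 106 at IF 8 h, 78.5, 109 and 75.2 at DC 8 h, 161, 205 and 235 at IF 22 h, and 153, 276 and 95.6 at DC 22 h. All IF 22 h libraries of Mcm6 lay above all unstimulated ones, and DC 22 h replicate 3 lay within the unstimulated range. For Mcm6 the log2 fold change was 1.13 ± 0.28 (SE, adjusted p 0.0258) at IF 22 h and 0.93 ± 0.28 (SE, adjusted p 0.0536) at DC 22 h. Its adjusted p with immunofilaments became 0.0740 to 0.114 when unstimulated replicate 1, 2 or 3 or IF 22 h replicate 2 or 3 was left out. Mcm7 measured 109.9, 115 and 104 CPM in unstimulated cells, 99.3, 79.5 and 86.5 at IF 8 h, 79.4, 84.6 and 90.9 at DC 8 h, 168, 176 and 225 at IF 22 h, and 168, 326 and 119.9 at DC 22 h. For Mcm7 all 22 h libraries lay above all others, and all 8 h libraries lay below the unstimulated ones. Mcm7 rose at DC 22 h by 0.90 ± 0.26 (SE, adjusted p 0.0455) and from DC 8 h to DC 22 h by 1.27 ± 0.26 (SE, adjusted p 0.0399) on the log2 scale. For Mcm7 the adjusted p of the first became 0.0518 to 0.232 in 11 of 15 fits that left 1 library out, and that of the second 0.0571 to 0.191 in 12 of 15 fits that left 1 library out. Exons of Mcm7 overlap those of Ap4m1, Cops6 and the microRNA genes Mir25 and Mir93. Mcm3 (chr1:20802968-20820312, minus strand) measured 35.6, 33.4 and 25.8 CPM in unstimulated cells, 20.3, 20.9 and 20.1 at IF 8 h, 23.3, 38.97 and 26.3 at DC 8 h, 42.9, 56.2 and 62.01 at IF 22 h, and 57.7, 111 and 40.1 at DC 22 h. For Mcm3 all 22 h libraries lay above all unstimulated ones, and its IF 8 h libraries lay below them. Mcm3 rose at DC 22 h by 1.13 ± 0.31 (SE, adjusted p 0.0306) and from IF 8 h to IF 22 h by 1.40 ± 0.32 (SE, adjusted p 0.0437) on the log2 scale. At DC 22 h the adjusted p of Mcm3 became 0.0688 to 0.169 when unstimulated replicate 1, 2 or 3 or DC 22 h replicate 2 was left out, and that over time 0.0554 to 0.193 in 11 of 15 fits that left 1 library out. Mcm2 had no call, with a log2 fold change of 1.03 ± 0.32 (SE, adjusted p 0.0588) at DC 22 h and 0.91 ± 0.32 (SE, adjusted p 0.105) at IF 22 h.

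Helicase activation held members with low counts and wide folds, and 3 of 6 rose at DC 22 h (3.41% of all genes higher). Gins2 (chr8:120578633-120589304, minus strand), a GINS subunit, rose in all 4 comparisons at 22 h and measured 3.08, 5.78 and 3.49 CPM in unstimulated cells, 1.60, 3.98 and 1.07 at IF 8 h, 3.56, 5.96 and 3.08 at DC 8 h, 11.1, 17.4 and 22.1 at IF 22 h, and 15.9, 34.5 and 11.7 at DC 22 h. For Gins2 all 22 h libraries lay above all others. For Gins2 the log2 fold change was 2.04 ± 0.48 (SE, adjusted p 0.0184) at IF 22 h and 2.33 ± 0.48 (SE, adjusted p 0.00646) at DC 22 h. From 8 h to 22 h it was 2.99 ± 0.53 (SE, adjusted p 0.0127) with immunofilaments and 2.29 ± 0.47 (SE, adjusted p 0.0358) with dendritic cells. For Gins2 the call at DC 22 h was kept whichever library was left out. The adjusted p became 0.0518 to 0.0892 when unstimulated replicate 1 or 3 or IF 22 h replicate 2 or 3 was left out for IF 22 h, 0.0627 to 0.0807 when IF 8 h replicate 1 or 3 or IF 22 h replicate 3 was left out for the immunofilament change over time, and 0.0559 to 0.192 in 7 of 15 fits that left 1 library out for the dendritic cell one. With IF 8 h replicate 2 left out, the immunofilament change of Gins2 over time came to 3.61 on the log2 scale. With IF 22 h replicates 2 and 3 both left out it came to 2.38, and the value against unstimulated cells to 1.42. Exons of Gins2 overlap those of Gse1 and exons of Cdc45 those of Ufd1. Cdc45, which joins GINS and MCM in the working helicase, measured 1.91, 4.51 and 5.35 CPM in unstimulated cells, 2.50, 5.30 and 3.75 at IF 8 h, 1.29, 4.96 and 1.17 at DC 8 h, 9.87, 12.3 and 13.6 at IF 22 h, and 20.1, 47.6 and 8.28 at DC 22 h. Every 22 h library of Cdc45 lay above every other library. Cdc45 rose at DC 22 h by 2.71 ± 0.62 (SE, adjusted p 0.0124) and from DC 8 h to DC 22 h by 3.35 ± 0.63 (SE, adjusted p 0.0265) on the log2 scale. The adjusted p of the first became 0.0676 to 0.0745 when unstimulated replicate 1 or DC 22 h replicate 2 was left out, and that of the second 0.0608 to 0.153 when DC 8 h replicate 1 or 3 or DC 22 h replicate 1 or 2 was left out. Its log2 fold changes came to 1.89 and 2.54 on leaving out DC 22 h replicate 2, and the second to 4.34 on leaving out DC 8 h replicate 2. Mcm10, a helicase scaffold, rose at DC 22 h by 2.98 ± 0.77 (SE, adjusted p 0.0256), with 0.147 to 3.07 CPM in unstimulated cells and 2.99 to 31.7 CPM at DC 22 h; DC 22 h replicate 3 lay within the unstimulated range. For Mcm10 the adjusted p became 0.0545 to 0.163 when unstimulated replicate 1, 2 or 3 or DC 22 h replicate 2 was left out, and the log2 fold change came to 2.02 when DC 22 h replicate 2 was left out and to 2.40 when unstimulated replicate 1 was. Gins4, another GINS subunit, measured 33.4, 58.3 and 51.9 CPM in unstimulated cells, 40.3, 41.7 and 47.1 at IF 8 h, 41.4, 53.7 and 43.7 at DC 8 h, 46.03, 58.04 and 56.4 at IF 22 h, and 66.4, 69.8 and 54.4 at DC 22 h. All 4 stimulated groups of Gins4 overlapped the unstimulated one, with DC 22 h replicate 3 within its range, and no comparison passed. Gins1 measured 10.1, 7.58 and 9.30 CPM in unstimulated cells, 3.21, 7.95 and 8.30 at IF 8 h, 3.17, 8.94 and 7.77 at DC 8 h, 12.7, 17.9 and 26.6 at IF 22 h, and 24.2, 43.5 and 12.4 at DC 22 h. For Gins1 all 22 h libraries lay above all others, and its largest log2 fold change against unstimulated cells, at DC 22 h, was 1.56 ± 0.47 (SE, adjusted p 0.0511). Gins3 had no call, with log2 fold changes of 0.21 at IF 22 h and 0.64 at DC 22 h.

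**Figure D5:**
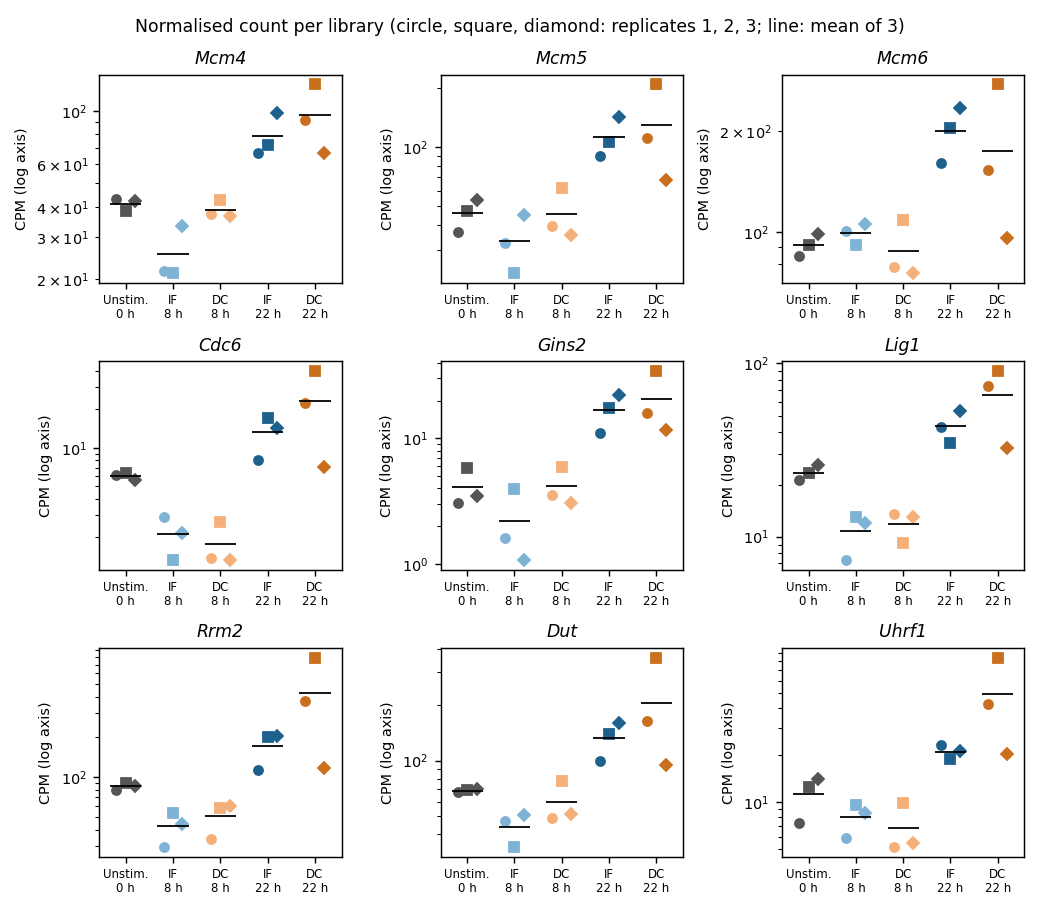
CPM on a log axis of 9 members in the 15 libraries, in 5 columns by group; circles, squares and diamonds are replicates 1, 2 and 3 and the line is the group mean. In DC 22 h the square is the highest point and the diamond the lowest.

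The sliding clamp and its loader gave 2 calls in 6, both at DC 22 h (3.41% of all genes higher). Pcna, the ring that holds polymerases on DNA, measured 278, 305 and 323 CPM in unstimulated cells, 264, 228 and 259 at IF 8 h, 212, 321 and 215 at DC 8 h, 371, 427 and 473 at IF 22 h, and 465, 769 and 288 at DC 22 h. IF 22 h libraries of Pcna lay above all unstimulated ones, and DC 22 h replicate 3 lay within the unstimulated range. For Pcna the log2 fold change was 0.49 ± 0.26 (SE, adjusted p 0.307) at IF 22 h and 0.75 ± 0.26 (SE, adjusted p 0.0940) at DC 22 h, and neither passed. Rfc2, a subunit of the clamp loader, measured 55.6, 71.5 and 58.1 CPM in unstimulated cells, 42.8, 50.02 and 39.9 at IF 8 h, 47.2, 38.1 and 52.1 at DC 8 h, 47.6, 60.4 and 76.6 at IF 22 h, and 70.1, 92.7 and 49.01 at DC 22 h. The 8 h libraries of Rfc2 lay below all unstimulated ones, the 22 h libraries overlapped them, and no comparison passed. Rfc3 rose at DC 22 h by 1.77 ± 0.47 (SE, adjusted p 0.0292) and Rfc4 by 1.72 ± 0.50 (SE, adjusted p 0.0430) on the log2 scale. The adjusted p became 0.0645 to 0.186 when unstimulated replicate 1, 2 or 3 or DC 22 h replicate 2 was left out for Rfc3 and 0.0513 to 0.216 in 8 of 15 fits that left 1 library out for Rfc4. The log2 fold change of Rfc3 came to 1.01 on leaving out DC 22 h replicate 2. Rfc5 and Rfc1, the remaining loader subunits, had log2 fold changes of 0.81 and 0.34 at DC 22 h, with no call. Rfc1 was the one member whose value lay below 0 between IF 8 h and IF 22 h, at −0.19, against 0.87 with dendritic cells. Exons of Rfc2, Rfc4 and Rfc5 overlap those of Lat2, Eif4a2 and Wsb2.

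Of the 9 polymerase and primase genes, 3 rose at DC 22 h (3.41% of all genes higher) and 0 passed in the other comparisons. Pold1, the catalytic subunit of polymerase delta, measured 31.97, 28.4 and 41.2 CPM in unstimulated cells, 31.6, 30.2 and 36.9 at IF 8 h, 28.99, 33.3 and 42.1 at DC 8 h, 41.03, 44.8 and 73.3 at IF 22 h, and 59.9, 102 and 46.3 at DC 22 h. All DC 22 h libraries of Pold1 lay above all unstimulated and 8 h ones, as did IF 22 h replicates 2 and 3. Pold1 rose at DC 22 h by 1.04 ± 0.29 (SE, adjusted p 0.0342) on the log2 scale; the adjusted p became 0.0501 to 0.167 when unstimulated replicate 1, 2 or 3 or DC 22 h replicate 1 or 2 was left out. Pold2, an accessory subunit, measured 62.04, 48.8 and 51.6 CPM in unstimulated cells, 61.1, 46.7 and 69.6 at IF 8 h, 61.5, 102 and 41.2 at DC 8 h, 58.6, 57.3 and 68.4 at IF 22 h, and 76.8, 139 and 43.2 at DC 22 h. Its groups overlapped throughout, with replicate 2 the highest library in both DC groups, and no comparison passed. Pole, the catalytic subunit of polymerase epsilon, rose at DC 22 h by 1.76 ± 0.44 (SE, adjusted p 0.0210) and Prim1, the catalytic primase subunit, by 1.18 ± 0.31 (SE, adjusted p 0.0287). The adjusted p became 0.0790 to 0.1251 when unstimulated replicate 1 or 2 or DC 22 h replicate 2 was left out for Pole and 0.0518 to 0.149 when unstimulated replicate 1, 2 or 3 or DC 22 h replicate 1 or 2 was left out for Prim1. For Pole the log2 fold change came to 1.06 on leaving out DC 22 h replicate 2. At DC 22 h the others had log2 fold changes of 1.20 for Prim2, 1.02 for Pole2, 0.84 for Pola1, 0.79 for Pold3 and 0.71 for Pola2, with adjusted p from 0.0610 to 0.355. Exons of Pole overlap those of Gm15792 and exons of Pole2 those of Gm49384.

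None of the 3 genes of RPA, the complex that coats single-stranded DNA, passed in any comparison. Rpa2 measured 51.9, 59.6 and 55.8 CPM in unstimulated cells, 54.7, 54 and 51.4 at IF 8 h, 56.01, 45.2 and 51.2 at DC 8 h, 65.2, 64.01 and 63.7 at IF 22 h, and 64.3, 107 and 49.3 at DC 22 h. All IF 22 h libraries of Rpa2 lay above all unstimulated ones, while the DC 22 h libraries ran from below to above them. Rpa1, the large DNA-binding subunit, measured 60.1, 59.8 and 51.9 CPM in unstimulated cells, 47.4, 47.7 and 35.6 at IF 8 h, 45.9, 39.2 and 44.9 at DC 8 h, 58.9, 74.3 and 68.2 at IF 22 h, and 64.3, 58.8 and 50.04 at DC 22 h. All 8 h libraries of Rpa1 lay below all unstimulated ones, and the 22 h groups overlapped them. The log2 fold change of Rpa1 at DC 22 h was 0.01 ± 0.17 (SE, adjusted p 0.984), the lowest of the 46 members. Rpa3 stayed between 0.745 and 2.50 CPM in all libraries. Exons of Rpa1 overlap those of Gm47300.

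Both genes of flap removal and ligation rose at DC 22 h (3.41% of all genes higher). Lig1 (chr7:13277283-13311433, plus strand), the ligase that seals lagging-strand fragments, measured 21.3, 23.3 and 25.8 CPM in unstimulated cells, 7.31, 12.9 and 12.1 at IF 8 h, 13.5, 9.18 and 13.1 at DC 8 h, 42.7, 34.8 and 53.1 at IF 22 h, and 74.4, 90.6 and 32.3 at DC 22 h. All 8 h libraries of Lig1 lay below all unstimulated ones, and all 22 h libraries lay above them. Lig1 rose at DC 22 h by 1.49 ± 0.32 (SE, adjusted p 0.00867), from DC 8 h to DC 22 h by 2.46 ± 0.33 (SE, adjusted p 0.00659), and from IF 8 h to IF 22 h by 2.04 ± 0.34 (SE, adjusted p 0.00831) on the log2 scale. For Lig1 the call at DC 22 h was kept whichever library was left out; the adjusted p of the changes over time became 0.0525 when DC 8 h replicate 1 was left out with dendritic cells and 0.0508 when IF 8 h replicate 1 was left out with immunofilaments. At 8 h its values against unstimulated cells, −1.14 ± 0.34 (SE, adjusted p 0.0518) with immunofilaments and −0.98 ± 0.33 (SE, adjusted p 0.0863) with dendritic cells, did not pass. Fen1, the flap endonuclease, measured 27.7, 24.7 and 30 CPM in unstimulated cells, 22.1, 13.9 and 14.5 at IF 8 h, 26.8, 39.1 and 21.4 at DC 8 h, 34.01, 40.6 and 46.7 at IF 22 h, and 55.6, 101 and 31.9 at DC 22 h. IF 8 h libraries of Fen1 lay below all unstimulated ones, DC 8 h libraries overlapped them, and the 22 h libraries lay above them. Fen1 rose at DC 22 h by 1.19 ± 0.34 (SE, adjusted p 0.0383) on the log2 scale; the adjusted p became 0.0508 to 0.210 in 7 of 15 fits that left 1 library out. Exons of Fen1 overlap those of Tmem258 and Gm10143, and exons of Lig1 those of Zswim9.

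Summed in CPM over the 5 genes of deoxynucleotide synthesis, all 8 h libraries lay below the unstimulated ones and all 22 h libraries above them. The separation at 8 h depends on the TMM factors. As a plain share of counts, DC 8 h replicate 2 did not lie below the unstimulated libraries. The genes summed to 184.5 to 200.0 CPM in unstimulated cells, 91.27 to 132.2 at IF 8 h, 107.8 to 166.5 at DC 8 h and 275.2 to 453.1 at IF 22 h. At DC 22 h they summed to 660.6, 1373 and 259.2 CPM. All 5 rose from DC 8 h to DC 22 h (0.379% of all genes higher), 4 of 5 rose at DC 22 h against unstimulated cells (3.41%), and 2 of 5 rose from IF 8 h to IF 22 h (0.637%). Rrm2 (chr12:24708241-24714146, plus strand), the small subunit of ribonucleotide reductase, measured 79.4, 90.1 and 85.3 CPM in unstimulated cells, 29.6, 53.7 and 44.2 at IF 8 h, 34.2, 57.95 and 60.3 at DC 8 h, 112, 198 and 204 at IF 22 h, and 371, 787 and 117 at DC 22 h. All 8 h libraries of Rrm2 lay below all unstimulated ones and all 22 h libraries above them, and DC 22 h spanned from the level of IF 22 h replicate 1 to several times that of IF 22 h replicate 3. Rrm2 rose at DC 22 h by 2.32 ± 0.47 (SE, adjusted p 0.00565), from DC 8 h to DC 22 h by 3.07 ± 0.48 (SE, adjusted p 0.0107), and from IF 8 h to IF 22 h by 2.02 ± 0.47 (SE, adjusted p 0.0483) on the log2 scale. For Rrm2 the first call was kept whichever library was left out; the adjusted p of the second became 0.0583 when DC 8 h replicate 1 was left out, and that of the third 0.0526 to 0.193 in 12 of 15 fits that left 1 library out. On leaving out DC 22 h replicate 2, the log2 fold change of Rrm2 came to 1.54 at DC 22 h and to 2.29 from DC 8 h; on leaving out IF 22 h replicates 2 and 3, the immunofilament change came to 1.41. Between stimuli at 22 h the log2 difference of Rrm2 was −1.31 ± 0.45 (SE, adjusted p 0.151). Rrm1, the large subunit, rose at DC 22 h by 1.52 ± 0.40 (SE, adjusted p 0.0289) and from DC 8 h to DC 22 h by 1.97 ± 0.41 (SE, adjusted p 0.0399). Its first adjusted p became 0.0549 to 0.163 when unstimulated replicate 1, 2 or 3 or DC 22 h replicate 1 or 2 was left out, and the second 0.0551 to 0.200 in 10 of 15 fits that left 1 library out.

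Dut, which hydrolyses dUTP and so keeps uracil out of DNA, measured 67.3, 69.5 and 70 CPM in unstimulated cells, 47.2, 34.1 and 50.6 at IF 8 h, 49.3, 77.3 and 51.8 at DC 8 h, 99.6, 139 and 160.1 at IF 22 h, and 164, 359 and 94.6 at DC 22 h. All 22 h libraries of Dut lay above all others, and DC 22 h replicate 2 stood far above the rest. Dut rose at DC 22 h by 1.58 ± 0.35 (SE, adjusted p 0.0112), from DC 8 h to DC 22 h by 1.79 ± 0.35 (SE, adjusted p 0.0283), and from IF 8 h to IF 22 h by 1.59 ± 0.36 (SE, adjusted p 0.0437) on the log2 scale. For Dut the first call was kept whichever library was left out; the adjusted p of the second became 0.0509 to 0.184 in 6 of 15 fits that left 1 library out, and of the third 0.0554 to 0.193 in 11 of 15 fits that left 1 library out. With DC 22 h replicate 2 left out, both DC values of Dut were lower, at 0.93 against unstimulated cells and 1.15 over time. Tyms, thymidylate synthase, measured 3.96, 3.43 and 3.26 CPM in unstimulated cells, 1.78, 2.32 and 5.35 at IF 8 h, 3.46, 3.48 and 2.20 at DC 8 h, 9.40, 6.09 and 8.52 at IF 22 h, and 16.9, 21.6 and 7.34 at DC 22 h. For Tyms all 22 h libraries lay above all others. Tyms rose at DC 22 h by 2.09 ± 0.45 (SE, adjusted p 0.00867) and from DC 8 h to DC 22 h by 2.31 ± 0.45 (SE, adjusted p 0.0283) on the log2 scale. For Tyms the call at DC 22 h was kept whichever library was left out, and the adjusted p over time became 0.0741 to 0.144 when DC 8 h replicate 1, 2 or 3 or DC 22 h replicate 1 or 2 was left out. Tk1, thymidine kinase, rose from DC 8 h to DC 22 h by 3.43 ± 0.71 (SE, adjusted p 0.0399); the adjusted p became 0.0586 to 0.192 in 9 of 15 fits that left 1 library out, and the log2 fold change came to 2.69 with DC 22 h replicate 2 left out. Its DC 22 h libraries ran from 10.8 to 84.3 CPM, and the lowest lay within the unstimulated range. Exons of Tk1 overlap those of Afmid.

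Chromatin and methylation inheritance held the only member that fell at 8 h. Chaf1b, a CAF-1 subunit, measured 24.6, 40.3 and 45.8 CPM in unstimulated cells, 16.4, 10.6 and 17.7 at IF 8 h, 18.1, 25.7 and 17.01 at DC 8 h, 29.7, 39.1 and 41.4 at IF 22 h, and 58.8, 72.5 and 33.3 at DC 22 h. All IF 8 h libraries of Chaf1b lay below all unstimulated ones, and IF 22 h libraries overlapped them. It fell at IF 8 h, with a log2 fold change of −1.29 ± 0.32 (SE, adjusted p 0.0201), and rose from DC 8 h to DC 22 h by 1.43 ± 0.30 (SE, adjusted p 0.0431). The adjusted p of the first became 0.0566 to 0.0840 when unstimulated replicate 2 or 3 or IF 8 h replicate 1 or 2 was left out, and that of the second 0.0560 to 0.223 in 11 of 15 fits that left 1 library out. Chaf1a, the large CAF-1 subunit, measured 3.08, 3.25 and 3.02 CPM in unstimulated cells, 1.43, 2.98 and 2.95 at IF 8 h, 1.39, 1.86 and 1.17 at DC 8 h, 3.57, 7.28 and 6.78 at IF 22 h, and 10.01, 24.2 and 5.29 at DC 22 h. All DC 8 h libraries of Chaf1a lay below all unstimulated ones and all 22 h libraries above them. Chaf1a rose at DC 22 h by 2.07 ± 0.52 (SE, adjusted p 0.0209) and from DC 8 h to DC 22 h by 3.14 ± 0.54 (SE, adjusted p 0.0147). For Chaf1a the adjusted p became 0.0679 to 0.167 when unstimulated replicate 1, 2 or 3 or DC 22 h replicate 2 was left out for the first and 0.0581 to 0.0949 when DC 8 h replicate 1, 2 or 3 or DC 22 h replicate 2 was left out for the second, and the log2 fold changes came to 1.31 and 2.39 with DC 22 h replicate 2 left out. Uhrf1, which brings DNMT1 to newly copied DNA, measured 7.33, 12.5 and 13.95 CPM in unstimulated cells, 5.88, 9.61 and 8.57 at IF 8 h, 5.15, 9.80 and 5.43 at DC 8 h, 23.2, 18.8 and 21.1 at IF 22 h, and 42.6, 83.99 and 20.2 at DC 22 h. All 22 h libraries of Uhrf1 lay above all others. Uhrf1 rose at DC 22 h by 2.13 ± 0.42 (SE, adjusted p 0.00496) and from DC 8 h to DC 22 h by 2.85 ± 0.43 (SE, adjusted p 0.0102) on the log2 scale. For Uhrf1 the call at DC 22 h was kept whichever library was left out, and the adjusted p over time became 0.0525 when DC 8 h replicate 1 was left out. Its log2 fold changes came to 1.51 at DC 22 h and 2.23 over time with replicate 2 of DC 22 h left out. Exons of Chaf1a overlap those of Ubxn6.

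Dnmt1, the maintenance DNA methyltransferase, measured 139, 107 and 144 CPM in unstimulated cells, 92.5, 120.3 and 72.8 at IF 8 h, 119.5, 102 and 74.8 at DC 8 h, 153, 209 and 211 at IF 22 h, and 189, 282 and 132 at DC 22 h. IF 22 h libraries of Dnmt1 lay above all unstimulated ones, DC 22 h replicate 3 lay within their range, and no comparison passed. For Dnmt1 the log2 fold change was 0.56 ± 0.26 (SE, adjusted p 0.240) at IF 22 h and 0.63 ± 0.26 (SE, adjusted p 0.164) at DC 22 h. Slbp, which binds the stem-loop of histone transcripts, measured 41.5, 45.5 and 42.3 CPM in unstimulated cells, 34.4, 40.8 and 37.7 at IF 8 h, 47.99, 50.5 and 51.8 at DC 8 h, 64.5, 63.7 and 62.8 at IF 22 h, and 69.1, 109 and 53.5 at DC 22 h. IF 8 h libraries of Slbp lay below all unstimulated ones, DC 8 h libraries lay above them, and the 22 h libraries lay above all of these. Slbp rose at DC 22 h by 0.84 ± 0.21 (SE, adjusted p 0.0209); the adjusted p became 0.0561 to 0.0908 when unstimulated replicate 1, 2 or 3 or DC 22 h replicate 2 was left out. Exons of Slbp overlap those of Gm10459.

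Across the 9 comparisons, 26 members passed in at least 1 and 20 in none; over all genes 16.2% passed in at least 1. Of the 50 single calls, 4 stayed past the threshold under all alternatives tried, all at DC 22 h against unstimulated cells: Mcm4, Lig1, Rrm2 and Uhrf1. Those of Gins2 and Tyms at DC 22 h stayed under all but the filter at 10 CPM, which removed both genes. With the fits that leave out 1 library alone, 8 stayed: these 6, Dut at DC 22 h and Mcm4 from IF 8 h to IF 22 h. None of the 50 changed sign under any alternative. In size, 16 moved by over 1.5 times on leaving out DC 22 h replicate 2, all toward 0, and 1 each on leaving out unstimulated replicate 1, IF 8 h replicate 2 or DC 8 h replicate 2. With IF 22 h replicates 2 and 3 both left out 4 moved as far, and with replicate 2 of both DC groups left out 11, all toward 0.

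Genes that control entry into S phase were taken from a separate list of 17, of which 16 were tested. In it 2 fell at IF 8 h, 2 rose at DC 22 h, 1 rose from IF 8 h to IF 22 h and 2 rose from DC 8 h to DC 22 h. In that order, the shares of all genes were 4.72% lower, 3.41% higher, 0.637% higher and 0.379% higher. E2f1, an activator of replication genes, measured 9.83, 12.6 and 10.5 CPM in unstimulated cells, 3.03, 0.331 and 1.87 at IF 8 h, 9.50, 8.94 and 4.69 at DC 8 h, 16.4, 19.9 and 26.01 at IF 22 h, and 36.2, 65.97 and 13.4 at DC 22 h. The IF 8 h libraries of E2f1 lay below all others, and its 22 h libraries lay above them all. It fell at IF 8 h, with a log2 fold change of −2.51 ± 0.59 (SE, adjusted p 0.0163), and rose from IF 8 h to IF 22 h by 3.43 ± 0.58 (SE, adjusted p 0.00831) and from DC 8 h to DC 22 h by 2.31 ± 0.48 (SE, adjusted p 0.0399). At DC 22 h E2f1 rose by 1.81 ± 0.48 (SE, adjusted p 0.0278) against unstimulated cells, with replicate 3 the lowest of that group. E2f2, a related activator, measured 19.4, 20.4 and 13.7 CPM in unstimulated cells, 7.84, 7.62 and 1.07 at IF 8 h, 11.8, 9.80 and 22.6 at DC 8 h, 7.49, 8.12 and 11.1 at IF 22 h, and 26.04, 24.1 and 24.7 at DC 22 h. IF 8 h and IF 22 h libraries of E2f2 lay below all unstimulated ones, and DC 22 h libraries lay above them. E2f2 fell at IF 8 h, with a log2 fold change of −1.68 ± 0.46 (SE, adjusted p 0.0358). Gmnn, the geminin inhibitor of CDT1, rose at DC 22 h by 1.44 ± 0.40 (SE, adjusted p 0.0356), and Ccne1, cyclin E1, rose from DC 8 h to DC 22 h by 2.26 ± 0.45 (SE, adjusted p 0.0283). In the 15 fits that left 1 library out, some of these calls were lost; the number of fits is given with the highest adjusted p. For E2f1 it was 3 (to 0.0624) at IF 8 h, 1 (to 0.0561) over time with immunofilaments, 10 (to 0.205) over time with dendritic cells and 5 (to 0.161) at DC 22 h. It was 4 (to 0.101) for E2f2, 4 (to 0.2502) for Gmnn and 5 (to 0.184) for Ccne1. The log2 fold changes of E2f1 came to −3.23 (IF 8 h) and 4.15 (IF over time) with IF 8 h replicate 1 left out, and to 1.19 (DC 22 h) and 1.70 (DC over time) with DC 22 h replicate 2 left out. That of Gmnn came to 0.66 with the latter left out.

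Other replisome and origin genes came from a list of 36, of which 34 were tested. In it 1 fell at IF 8 h, 5 rose at DC 22 h, 2 rose from DC 8 h to DC 22 h and 0 rose from IF 8 h to IF 22 h, against 4.72% of all genes lower at IF 8 h and, in the same order, 3.41%, 0.379% and 0.637% higher. The calls at DC 22 h included Hells, a chromatin remodeller, by 2.92 ± 0.68 (SE, adjusted p 0.0138), the RNase H2 subunit Rnaseh2b by 1.33 ± 0.32 (SE, adjusted p 0.0167), and the histone chaperone Nasp by 1.22 ± 0.29 (SE, adjusted p 0.0175) on the log2 scale. Clspn, the checkpoint mediator claspin, rose from DC 8 h to DC 22 h by 3.55 ± 0.54 (SE, adjusted p 0.0102). Asf1b, a histone chaperone, fell at IF 8 h with a log2 fold change of −1.42 ± 0.40 (SE, adjusted p 0.0382) and rose from DC 8 h to DC 22 h by 1.94 ± 0.38 (SE, adjusted p 0.0283). DC 22 h replicate 2 was the highest library for each of these 5 genes. With it left out, the log2 fold change of Hells came to 2.12 and that of Clspn over time to 2.64; with unstimulated replicate 2 left out, that of Hells came to 3.53. Counted in the same way, calls were lost in 3 (to 0.0863) of 15 fits for Hells, 3 (to 0.0799) for Rnaseh2b, 3 (to 0.0905) for Nasp and 1 (to 0.0525) for Clspn. For Asf1b the number was 8 (to 0.144) at IF 8 h and 5 (to 0.153) over time.

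Other genes of nucleotide metabolism numbered 40, all tested, and the share called at 8 h was near that of all genes. At IF 8 h 3 rose and 1 fell (10%), against 7.76% of all genes called, 3.04% higher and 4.72% lower. At DC 8 h 3 rose and 0 fell (7.5%), against 6.82% of all genes called, 2.75% higher and 4.07% lower. The median log2 fold change of the 40 genes at 8 h was 0.25 with either stimulus, against 0.02 (IF) and 0.04 (DC) over all genes. At 22 h 4 rose with immunofilaments and 3 with dendritic cells, against 2.63% and 3.41% of all genes higher. From 8 h to 22 h 1 rose and 1 fell with immunofilaments (0.637% and 0.48% of all genes) and 1 rose with dendritic cells (0.379%). Samhd1, which hydrolyses deoxynucleotide triphosphates, measured 313, 347 and 304 CPM in unstimulated cells, 1055, 755 and 1294 at IF 8 h, 765, 1043 and 695 at DC 8 h, 492, 654 and 412 at IF 22 h, and 682, 827 and 549 at DC 22 h. Every stimulated library of Samhd1 lay above every unstimulated one, and the 8 h immunofilament libraries lay above the 22 h ones. It rose at IF 8 h by 1.69 ± 0.23 (SE, adjusted p 0.000240) and at DC 8 h by 1.38 ± 0.22 (SE, adjusted p 0.00129) on the log2 scale, and fell from IF 8 h to IF 22 h with a log2 fold change of −0.995 ± 0.22 (SE, adjusted p 0.0432). Adk, adenosine kinase, rose at IF 8 h by 1.82 ± 0.26 (SE, adjusted p 0.000451), at DC 8 h by 1.15 ± 0.26 (SE, adjusted p 0.0117) and at IF 22 h by 1.09 ± 0.26 (SE, adjusted p 0.0187). Shmt1, a source of one-carbon units for thymidylate, rose at IF 8 h by 2.37 ± 0.61 (SE, adjusted p 0.0270), at IF 22 h by 2.31 ± 0.61 (SE, adjusted p 0.0316) and at DC 22 h by 2.56 ± 0.61 (SE, adjusted p 0.0159). Dctd, dCMP deaminase, rose at DC 8 h by 2.19 ± 0.61 (SE, adjusted p 0.0379), and Prps2, a PRPP synthetase, fell at IF 8 h with a log2 fold change of −0.91 ± 0.23 (SE, adjusted p 0.0221). The 8 h calls of Samhd1 and the IF 8 h call of Adk were kept whichever library was left out. Other calls were lost in 9 (to 0.215) of 15 fits for Samhd1 over time, 1 (to 0.0673) for Adk at DC 8 h and 2 (to 0.0937) for Adk at IF 22 h, with the highest adjusted p in brackets. For Shmt1 the number was 5 (to 0.107) at IF 8 h, 5 (to 0.130) at IF 22 h and 3 (to 0.103) at DC 22 h. It was 6 (to 0.168) for Dctd and 4 (to 0.102) for Prps2. Shmt1 measured 5.13 to 7.95 CPM in unstimulated cells and 24.1, 77.0 and 10.3 CPM in DC 22 h replicates 1, 2 and 3, and with replicate 2 left out its log2 fold change there came to 1.46. The log2 fold change of Dctd came to 2.85 on leaving out unstimulated replicate 1.

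The 20 mitosis genes, which act after replication, lay above their unstimulated level in DC 22 h replicates 1 and 2 and below it in all other stimulated libraries. Their sums were 273.4 to 297.2 CPM in unstimulated cells, 157.4 to 209.0 at IF 8 h, 147.5 to 183.0 at DC 8 h, 201.6 to 232.8 at IF 22 h, and 478.6, 831.7 and 185.5 CPM at DC 22 h. Thus the IF 22 h libraries lay below the unstimulated sums for mitosis genes and above them for the 46 replication members; this difference between the lists was not tested. At IF 22 h 0 of 20 passed in edgeR (6.07% of all genes), and 2 of 20 had an unadjusted p under 0.05, against 2225 of all 10831 genes. There 17 of 20 values lay below 0, against 5301 of 10831 genes. The median log2 fold change was −0.40, against 0.01 over all genes. Of the 20, 2 rose at DC 22 h (3.41% of all genes higher), and from DC 8 h to DC 22 h 5 rose (0.379% of all genes higher), among them Cdk1 by 3.05 ± 0.48 (SE, adjusted p 0.0107), Mki67 by 1.99 ± 0.35 (SE, adjusted p 0.0189) and Aurkb by 2.89 ± 0.54 (SE, adjusted p 0.0265) on the log2 scale. Top2a, the topoisomerase that untangles chromosomes, rose at DC 22 h by 1.21 ± 0.35 (SE, adjusted p 0.0428). With DC 22 h replicate 2 left out, the change over time came to 2.25 for Cdk1 and 2.12 for Aurkb. Calls were lost, with the highest adjusted p in brackets, in 2 (to 0.0581) of 15 fits for Cdk1, 5 (to 0.102) for Mki67, 5 (to 0.153) for Aurkb and 10 (to 0.218) for Top2a. Between the stimuli at 22 h all 20 values lay lower with immunofilaments, with a median of −1.25 against −0.02 over all genes. Of these 0 passed in edgeR (2.43% of all genes), while 12 had an unadjusted p under 0.05 (15.3% of all genes). The part of DC 22 h replicate 2 in this median was not tested.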

How the data were processed

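The authors deposited raw counts per gene as whole numbers for 15 CEL-seq libraries, which count the 3′ ends of transcripts, so levels are not compared between genes. Per the labels' protocols, RNA from sorted cells was barcoded in reverse transcription, pooled and amplified by in vitro transcription. BWA and mm10 are named per the submitters' processing notes; the counting program, annotation, strand setting and use of molecular identifiers are not given in the sources used here. Depth was 2892874 to 19806730 counts, and genes without a test held at most 0.124% of the counts of any library.

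Counts were fitted with edgeR 4.0.16 (R 4.3.3, limma 3.58.1) by the quasi-likelihood test: TMM scaling, filterByExpr with a minimum count of 10 and total of 15, 1 mean for each of 5 groups over all 15 libraries, a prior count of 0.125 in fold changes, and 2-sided p-values adjusted by Benjamini-Hochberg over 10831 genes in each of 9 comparisons, with a threshold of 0.05. DESeq2 1.42.0, other scalings and filters, a replicate block, fits of only the groups compared and fits without 1 library were the alternatives for the members; for genes of other lists the fits without 1 library were run, a choice made after the values were seen; the script was tested on simulated data. Titles number libraries with the tag Don, whose meaning is not given. Deviations from the group means were correlated between libraries of the same number. These correlations exceeded 0.1 for each number for DC 8 h with DC 22 h (0.116, 0.399 and 0.238) and for no other groups. The main fit used no block in any comparison. Its SE and p-values for DC 22 h against DC 8 h thus ignore a possible pairing, and the block was an alternative only.

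Values in every library are given for the 2 members of each role with the highest mean CPM and for up to 8 called members with the smallest p in each comparison, and for other lists up to 3 called genes; Pole2 was named in addition after its values were seen. A result in the nucleotide metabolism list is not reported here. The members and lists were chosen with earlier results of these data known. Gene positions and exon overlaps come from GENCODE vM21 on GRCm38.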

Additional observations from a re-analysis of the deposited data

Results flagged for a closer look

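Slbp was singled out because, in TMM-scaled CPM, its 8 h libraries lay on opposite sides of the unstimulated ones with the 2 stimuli. At IF 8 h it measured 34.4 to 40.8 CPM, with a mean of 37.6 CPM, below the unstimulated 41.5 to 45.5 CPM. At DC 8 h it measured 47.99 to 51.8 CPM, above them. The place of the IF 8 h libraries depends on the TMM factors. On plain counts, IF 8 h replicate 2 with 123 of 2892874 lay above unstimulated replicate 1 with 283 of 7958411. The IF 8 h and unstimulated libraries then overlap. The direct test of IF against DC at 8 h gave a log2 difference of −0.42 ± 0.21 (SE, adjusted p 0.658) in edgeR, and it did not pass. Of 46 members looked at in this way, 1 showed such a split.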

How the results depend on the processing

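Counts of members called moved with the processing more than directions did: none of the 50 single calls changed sign. Values named by a single group are against unstimulated cells, and brackets give the share of all genes called in the same fit. Without the filter on low counts, the members called were 5 with either stimulus at 8 h (6.82% IF, 6.59% DC), 15 at IF 22 h (6.43%) and 4 between stimuli at 22 h (4.12%). They were 25 from IF 8 h to IF 22 h (2.93%) and 33 from DC 8 h to DC 22 h (1.47%). With genes of at least 10 CPM on average they were 2 at IF 8 h (11.1%) and 9 from DC 8 h to DC 22 h (0.59%). DESeq2 called 2 at IF 8 h (11.7%), 2 at DC 8 h (10.9%), 1 between stimuli at 22 h (5.2%), 18 from IF 8 h to IF 22 h (3.38%) and 28 from DC 8 h to DC 22 h (1.94%). Total counts alone as the scale gave 7 at IF 22 h (7.74%), 36 at DC 22 h (14.7%) and 5 from IF 8 h to IF 22 h (1.03%), and put the median of all genes against unstimulated cells at 0.22 to 0.37 on the log2 scale. Fits of only the groups compared gave, with immunofilaments, 4 at 8 h (13.7%) and 16 at 22 h (9.93%), and with dendritic cells 1 at 8 h (8.34%) and 8 at 22 h (5.13%). They gave 15 from IF 8 h to IF 22 h (1.02%) and 0 from DC 8 h to DC 22 h (0%). Without replicate 2 of both DC groups the counts with immunofilaments were 3 at 8 h (12.7%) and 12 at 22 h (10.2%), and those with dendritic cells 1 at 8 h (6.35%) and 9 at 22 h (6.29%). They were 22 from IF 8 h to IF 22 h (3.23%) and 6 from DC 8 h to DC 22 h (0.171%). Without IF 22 h replicates 2 and 3 they were 0 at IF 22 h (0.833%), 0 from IF 8 h to IF 22 h (0%) and 9 from DC 8 h to DC 22 h (0.421%).

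With the replicate number as a block in the fit of all groups, the counts at 8 h were 1 with either stimulus (7.08% IF, 6.59% DC), those at 22 h were 4 with immunofilaments (5.89%) and 20 with dendritic cells (7.25%). The others were 0 between stimuli at 8 h (0.499%) and at 22 h (2.26%), 8 from IF 8 h to IF 22 h (0.969%), 11 from DC 8 h to DC 22 h (0.452%) and 0 for the interaction (0%). The block in the fit of the 2 DC groups alone, added after seeing the data, gave 24 (1.63%). The titles use the same numbered tag in every group, and in the fit of all groups the block moved no count by over 1.5 times except at DC 8 h, from 0 to 1.

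Leaving out 1 library at a time gave 0 to 3 (IF) and 0 to 2 (DC) at 8 h, 0 to 11 (IF) and 7 to 32 (DC) at 22 h, 0 to 0 between stimuli at 8 h, 0 to 2 at 22 h, 1 to 18 from IF 8 h to IF 22 h, 0 to 32 from DC 8 h to DC 22 h and 0 to 0 for the interaction. In fits where a group keeps fewer libraries, its spread is assumed to be that of the other groups. The causes of these shifts were not tested.

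With 3 libraries a group, a p that misses the threshold does not show equal levels. The members with the fewest counts were Orc1, Rpa3, Chaf1a, Mcm10, Tyms and Rfc4, with 148 to 952 in all libraries together, then Gins3, Pola1, Cdc6, Cdc45 and Gins2 with 1039 to 1459.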
